A study of Mus musculus with 7 samples.

Results

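The core genes of reelin signalling, 4 of the 55450 genes in the files, are described here: Reln, the secreted ligand, Lrp8 and Vldlr, its receptors, and Dab1, the adaptor inside the receiving cell. They were found by their symbols, and hold 43 of the 141767 annotated transcripts in the files (15 of Reln, 12 of Lrp8, 8 of Vldlr and 8 of Dab1). Polyadenylated RNA had been sequenced from whole cerebella of C57BL/6 mice at postnatal day 15. There were 4 L3mbtl3 KO/+ libraries, with a knockout of L3mbtl3 on 1 of its copies, and 3 L3mbtl3 WT libraries. The labels do not say which part of L3mbtl3 was altered, nor which litters or batches the mice came from, so p-values measure the spread between these samples. The comparison asks whether levels or transcript forms of the reelin genes differ between L3mbtl3 KO/+ and WT cerebella.

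In the reelin pathway, the secreted protein binds LRP8 (also called APOER2) and VLDLR, which cluster and lead to tyrosine phosphorylation of DAB1 by SRC family kinases. Phosphorylated DAB1 then recruits adaptors such as CRK, PI3 kinase and the machinery that degrades DAB1 itself. In the developing cerebellum, reelin is made by cells of the rhombic lip lineage, granule neurons among them, and Purkinje cells carry the receptors and DAB1. Mice without reelin, without DAB1 or without both receptors have misplaced Purkinje cells and a small, poorly folded cerebellum.

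Both receptors bind DAB1 through 1 motif in their cytoplasmic tail, asparagine, proline, any residue and tyrosine, and its codons show how the pair are related. The lines below give these codons in capitals with 12 flanking bases on each side, from GENCODE M21 transcripts (GRCm38, plus strand). The motif occurs once in the reading frame of each, at chr4:107869049-107869084 in exon 17 of Lrp8-201 and at chr19:27247928-27247963 in exon 18 of Vldlr-207.
Lrp8-201: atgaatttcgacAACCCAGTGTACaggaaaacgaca
Vldlr-207: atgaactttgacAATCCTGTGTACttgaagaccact
Of the 36 bases compared, 27 were identical, and within the motif 10 of 12 were.

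Alternative exons separate main transcripts of the receptors. In the ligand, 1 separates the full-length Reln-207 from the minor Reln-201 (mean share 0.51%). Sequences of such exons are given here because exon shares below refer to them. Exon 64 of Reln is a microexon of 6 bases (chr5:21891562-21891567, minus strand) near the end of the coding sequence. It is shown in capitals with 24 spliced bases on each side, from Reln-207. Exon 16 of Vldlr (chr19:27246593-27246676, plus strand, 84 bases) encodes the segment that carries O-linked sugars, next to the membrane. Exon 19 of Lrp8 (chr4:107870012-107870188, plus strand, 177 bases, numbered along Lrp8-209) encodes a proline-rich insert of the cytoplasmic tail that lies beyond the DAB1-binding motif.
Reln exon 64: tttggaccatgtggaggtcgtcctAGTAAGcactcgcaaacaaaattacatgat
Vldlr exon 16: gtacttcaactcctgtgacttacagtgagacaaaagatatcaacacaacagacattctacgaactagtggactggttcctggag
Lrp8 exon 19: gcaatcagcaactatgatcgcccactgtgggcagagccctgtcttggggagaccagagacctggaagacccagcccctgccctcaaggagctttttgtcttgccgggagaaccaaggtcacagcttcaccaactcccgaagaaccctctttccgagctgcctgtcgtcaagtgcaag
All of these exons are a whole number of codons long, so their loss or gain keeps the reading frame.

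The libraries held 29248360 to 43761792 expected counts each, and no pair agreed within sampling noise. L3mbtl3, the altered gene, which encodes a methyl-lysine reader of the MBT domain family, had 19.7, 17.4, 22.3 and 23.0 CPM (counts scaled to library size and TMM factors) in KO/+ cerebella, against 22.6, 26.8 and 23.2 CPM in WT. The genotypes overlapped, and the difference of -3.58 CPM had an exact permutation p of 0.143 (two-sided) or 0.0571 (one-sided, where 0.0286 is the smallest that 35 splits allow). Since the altered part is not given, reads from it were not looked at separately. In edgeR's quasi-likelihood test (Benjamini-Hochberg adjustment, threshold 0.05), 0 of 16813 genes passed (0%), and DESeq2 and limma-voom also called 0 genes. At an unadjusted p under 0.05 edgeR had 530 genes (3.15%). In 665 genes (3.96%) the KO/+ and WT libraries did not overlap.

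The level of the ligand varied most among the 4 genes, and varied within both genotypes. Reln (chr5:21884454-22344702, minus strand, GRCm38) had 295, 259, 307 and 488 CPM in KO/+ cerebella, against 485, 517 and 308 CPM in WT. The high values were those of KO/+ 4, WT 1 and WT 2, and the other 4 libraries lay at or below 308, so KO/+ 1, 2 and 3 lay below the lowest WT library and KO/+ 4 alone lay within the WT range. KO/+ over WT, the log2 fold change came to -0.37 (SE 0.25, with a 95% interval of -0.95 to 0.20, adjusted p = 0.957, edgeR). Its means were 337 ± 103 CPM in KO/+ and 437 ± 112 CPM in WT (SD, n = 4 and n = 3). The value moved to -0.61 without KO/+ 4, -0.57 without WT 3 and -0.24 without WT 2, and no setting brought it past the threshold. In whole cerebellum, fewer cells that make a transcript and less of it per cell cannot be told apart, here and below.

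Lrp8 (chr4:107802261-107876840, plus strand), the receptor best known for roles in migration and at synapses, was highest in the same 3 libraries as Reln, over a smaller range. It had 159.7, 159.4, 187 and 219 CPM in KO/+ cerebella, against 198, 209 and 159.3 CPM in WT. KO/+ 4 was the highest of the 7 libraries, WT 2 and WT 1 came next, and WT 3 was the lowest, so the genotypes overlapped throughout. The log2 fold change of -0.06 (SE 0.14, with a 95% interval of -0.38 to 0.27, adjusted p = 0.969, edgeR) was smaller than its error. Its sign turned in 4 of 20 alternative settings.

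Vldlr (chr19:27216484-27254231, plus strand), the other receptor, was steady. Its level was 134, 143, 147 and 151 CPM in KO/+ cerebella, against 139.7, 148 and 158 CPM in WT. KO/+ 1 was the lowest library and WT 3 the highest, and the genotypes overlapped between them. The log2 fold change was -0.05 (SE 0.08, with a 95% interval of -0.22 to 0.13, adjusted p = 0.957, edgeR).

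The adaptor Dab1 (chr4:103619359-104744844, plus strand) was likewise steady, at 61.5, 64.3, 58.5 and 65.1 CPM in KO/+ cerebella, against 59.7, 62.8 and 70.0 CPM in WT. WT 3 was the highest library and KO/+ 3 the lowest. Here the log2 fold change was -0.04 (SE 0.08, with a 95% interval of -0.22 to 0.14, adjusted p = 0.959, edgeR). None of the 4 genes thus passed the test or had genotypes that did not overlap, beside 0% and 3.96% of all genes. On the log2 scale, the intervals reach down to -0.22 for Vldlr and Dab1, to -0.38 for Lrp8 and to -0.95 for Reln.

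**Figure D1:**
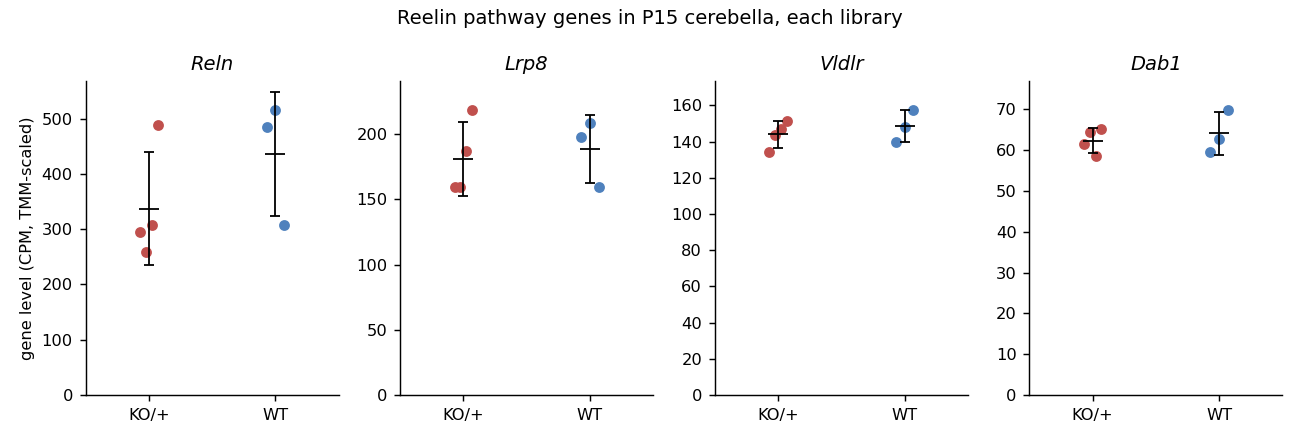
Level of each reelin pathway gene (TMM-scaled CPM, linear axes from 0) in 4 KO/+ and 3 WT cerebella; each point is a library and bars give the mean and SD. KO/+ 4, WT 1 and WT 2 stand apart at 485 to 517 CPM for Reln, while Vldlr and Dab1 vary little and all groups overlap.

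Genes with the most similar course over the 7 libraries were picked by the root mean square difference of log2 CPM, each gene centred on its mean, among 14468 genes of at least 1 CPM. For Reln, whose own SD was 0.42 on that scale, these were Gm49322 (0.062), Fat2 (0.068) and Slc2a4rg-ps (0.081). Fat2, a giant protocadherin on the parallel fibres of granule neurons, had 425, 388, 396 and 693 CPM in KO/+ cerebella, against 679, 688 and 421 CPM in WT. Like Reln it was high in KO/+ 4, WT 1 and WT 2. Gm49322 and Slc2a4rg-ps were low, with at most 4.50 and 5.71 CPM. Lrp8 (SD 0.20) lay closest to Bcl9l (0.026), Maml1 (0.027) and Baz2a (0.030). Vldlr (SD 0.08) was closest to Myd88 (0.018), Pdcd6ip (0.024) and Mark4 (0.026), and Dab1 (SD 0.09) to Fam171b (0.025), Anxa7 (0.027) and Tanc1 (0.028).

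Among marker lists of granule neurons, those of progenitors and of differentiating neurons moved in part with the ligand, and that of mature neurons did not. The list of granule neuron progenitors and cell cycle (12 genes, all above 0, led by Pcna and Barhl1) summed to 278, 255, 486 and 559.5 TPM in KO/+ cerebella, against 609, 598 and 266 TPM in WT. That of differentiating granule neurons (10 genes, all above 0, led by Neurod1 and Tubb3) summed to 1330.3, 1143, 1498 and 1643 TPM in KO/+, against 1645, 1665 and 1187 TPM in WT. KO/+ 4, WT 1 and WT 2 were high on both lists as on Reln, but KO/+ 3 was also fairly high on them and low in Reln. With the mean log2 CPM of these lists as a covariate, the log2 fold change of Reln was -0.19 for progenitors and -0.16 for differentiating neurons. Mature granule neuron genes (10 genes, all above 0) were led by Snap25 and Calb2. They summed to 4842, 4401, 3578 and 3855 TPM in KO/+, against 3721, 3427 and 3531 TPM in WT. This list was highest in KO/+ 1 and KO/+ 2, where Reln was low. Of its 10 genes, 9 had positive log2 fold changes and 1, Fat2, a negative one (-0.33). The part of cell composition in the ligand's level was not tested.

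**Figure D2:**
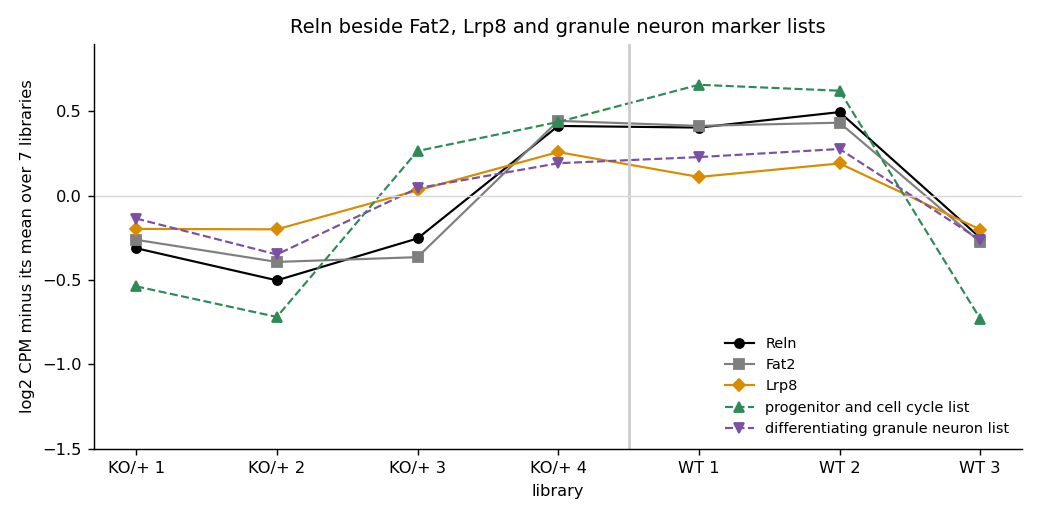
Log2 CPM of Reln, Fat2 and Lrp8, and mean log2 CPM of 2 granule neuron marker lists, each minus its mean over 7 libraries, with KO/+ libraries left of WT. Reln and Fat2 run together, and the marker lists part from them in KO/+ 3.

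Cells from outside the cerebellar cortex were checked by markers. Among markers of Cajal-Retzius and forebrain cells, Emx1, Emx2 and Tbr1 stayed under 1 TPM in every library, and the list summed to 26.0 to 41.6 TPM in KO/+ and 29.2 to 39.0 TPM in WT, led by Lhx5 and Neurod6. Of 8 brainstem and cerebellar nuclei markers, 5 stayed under 1 TPM in every library, and the list, led by Slc17a6 and Th, summed to 30.7, 34.0, 41.5 and 39.8 TPM in KO/+, against 43.6, 38.4 and 81.1 TPM in WT. WT 3 stood apart on this list, with 68.4 TPM of Slc17a6 and 7.97 TPM of Th, against 41.2 and 34.9 TPM of Slc17a6 and 1.78 and 2.68 TPM of Th in the other WT libraries. Without WT 3, the WT library with the lowest Reln level, the log2 fold change of Reln was -0.57; the part of these markers in it was not tested. Purkinje cell genes (12 genes, all above 0, led by Pcp4 and Pcp2) summed to 7473 to 9848 TPM in KO/+ and 7189.5 to 8814 TPM in WT, high in every library of this tissue. Choroid plexus genes (10 genes, all above 0, led by Ttr and Otx2) ran from 60.9 to 2356 TPM in KO/+ and from 48.8 to 1869 TPM in WT. The sums were low in KO/+ 4, WT 1 and WT 3, a split that none of the 4 reelin genes showed. Ttr followed this split, but Otx2 did not. Otx2 had 33.9, 30.7, 33.9 and 45.6 TPM in KO/+, against 37.2, 46.3 and 27.9 TPM in WT. With the mean log2 CPM of the choroid plexus list as a covariate, the log2 fold changes were -0.32 for Reln, -0.02 for Lrp8, -0.03 for Vldlr and -0.02 for Dab1, and 0 genes passed (143 at an unadjusted p under 0.05). This count moved both ways, from 530 in edgeR without a covariate. It was 1099 with the progenitor list and 1271 with the differentiating neuron list as a covariate, and 0 genes passed in either fit.

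Per length, the ligand was the most abundant of the 4 by the deposited gene TPM, a level scaled by transcript length and library size, but that order rested on how its short transcripts were counted. Reln had 113, 80.2, 102 and 169 TPM in KO/+ cerebella, against 166, 186 and 91.4 TPM in WT. Lrp8 had 47.3, 47.2, 61.7 and 70.2 TPM in KO/+, against 62.3, 66.5 and 51.0 TPM in WT. In each of the 7 libraries the order was Reln, Lrp8, Vldlr and Dab1.

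Vldlr was at 33.2, 35.5, 38.4 and 39.0 TPM in KO/+ cerebella, against 35.2, 38.3 and 41.7 TPM in WT. Dab1 was at 23.9, 27.7, 26.8 and 26.5 TPM in KO/+, against 26.3, 27.9 and 32.6 TPM in WT. As log2 ratios of TPM within a library, Reln exceeded Lrp8 by 1.11 ± 0.32, Lrp8 exceeded Vldlr by 0.62 ± 0.22 and Vldlr exceeded Dab1 by 0.45 ± 0.08 (SD, n = 7 each, all positive in 7 of 7 libraries).

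When TPM was summed over protein-coding transcripts alone, Reln fell among the receptors. It then averaged 34.6 ± 12.9 TPM in KO/+ and 47.0 ± 11.5 TPM in WT (SD, n = 4 and n = 3), and its ratio to Lrp8 was -0.09 ± 0.22 on the log2 scale (above 0 in 3 of 7 libraries). Lrp8 over Vldlr was 0.21 ± 0.28 on this scale (5 of 7 libraries), so these neighbours did not differ beyond their spread. Vldlr over Dab1 held at 0.54 ± 0.06 (7 of 7 libraries). Counting all reads of a gene against its longest transcript, a choice made after seeing the data, gave 0.18 ± 0.26 for Reln over Lrp8 (5 of 7 libraries), and kept Lrp8 over Vldlr at 0.59 ± 0.20 and Vldlr over Dab1 at 0.61 ± 0.07 (7 of 7 libraries each). The step from Vldlr to Dab1 thus kept its direction in every library on all scales, and the step between ligand and Lrp8 did not.

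**Figure D3:**
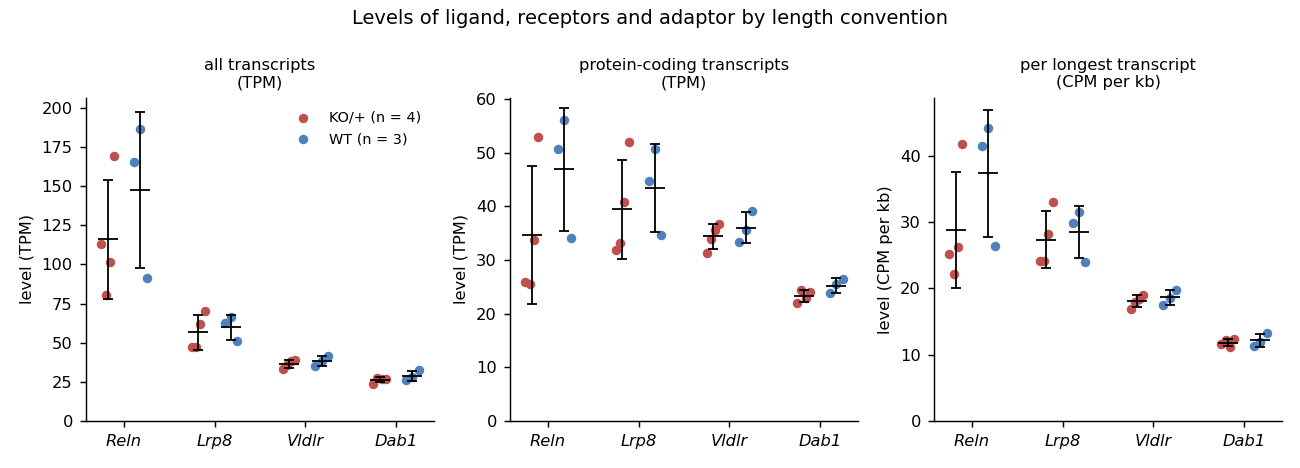
Levels of the 4 genes in 4 KO/+ and 3 WT cerebella on 3 length conventions (linear axes from 0; points are libraries, bars the mean and SD). Reln stands above the rest in TPM of all transcripts, and near Lrp8 in the other panels.

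For Reln, the difference between scales lay largely in its short transcripts. Protein-coding transcripts held 31.1% of Reln, 70.6% of Lrp8, 94.1% of Vldlr and 88.4% of Dab1, as means over 7 libraries. The coding scale therefore left out part of Lrp8 as well. Reln-207 (11699 bases, 65 exons), the full coding mRNA, held 22.8%, 31.5%, 32.4% and 30.9% of Reln transcripts in KO/+ cerebella, against 30.0%, 29.6% and 36.8% in WT. Reln-205, a non-coding transcript of 891 bases and 3 exons at the 3′ end of the gene, held 41.7%, 35.9%, 32.8% and 39.1% in KO/+, against 35.5%, 38.7% and 32.8% in WT. Reln-203, a retained-intron transcript of 2775 bases, held 25.2% to 27.4% in KO/+ and 24.5% to 28.1% in WT.

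By reads the picture was the other way round, since long transcripts give more fragments. Reln-207 took 77.8% of the gene's expected counts, Reln-203 took 14.4% and Reln-205 took 4.47%, as means over 7 libraries. Of the bases of Reln-205 and Reln-203, 85.4% and 90.6% also lie in Reln-207, so RSEM had to divide most of their reads between these models. Reln-207 had a log2 fold change of -0.39 (SE 0.25, adjusted p = 0.9997, edgeR over 44375 transcripts), close to that of the gene.

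The microexon was in nearly all full-length ligand mRNA. Of transcripts assigned to Reln-207, which holds it, or Reln-201, which skips it, 99.0%, 98.6%, 97.7% and 98.5% were Reln-207 in KO/+ cerebella, against 98.1%, 98.2% and 98.7% in WT. Genotypes overlapped, and all 7 libraries lay between 97.7% and 99.0%. Reln-201 is also annotated with a shorter 3′ end, so these are shares of transcript models and not read counts over the junction.

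Vldlr was mostly counted as the long form with exon 16. Vldlr-207 (7971 bases, coding) held 60.0%, 61.5%, 64.1% and 66.2% of Vldlr transcripts in KO/+ cerebella, against 66.0%, 66.7% and 62.0% in WT. Vldlr-202, which lacks exons 4 and 16, held 19.9%, 15.7%, 16.2% and 17.7% in KO/+, against 17.9%, 11.9% and 12.9% in WT. Vldlr-208, which lacks exon 16 and keeps exon 4, held 6.16% to 11.4% in KO/+ and 6.91% to 11.3% in WT. Exon 16 was therefore in 65.8%, 67.2%, 67.4% and 70.1% of the transcripts that span it in KO/+ cerebella, against 70.4%, 71.5% and 68.7% in WT. KO/+ 4 reached into the WT range, so the genotypes overlapped. Exon 4, in the ligand-binding region, was in 77.1% to 81.6% in KO/+ and 79.1% to 85.2% in WT. Vldlr-207 also has a last exon of 5127 bases, against 623 in Vldlr-202 and 758 in Vldlr-208. Reads from its long 3′ end bear on these shares, which are of transcript models and not read counts over the junctions.

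Lrp8 was mostly counted as forms without the cytoplasmic insert. Lrp8-202 (6627 bases, coding, with an incomplete 5′ end in the annotation), which skips exon 19, held 55.7%, 57.2%, 56.5% and 61.1% of Lrp8 transcripts in KO/+ cerebella, against 60.0%, 61.8% and 54.5% in WT. Lrp8-209, annotated as subject to nonsense-mediated decay, held 25.5%, 24.9%, 25.3% and 17.7% in KO/+, against 20.8%, 17.6% and 27.0% in WT. The longest coding form, Lrp8-201, held 6.11% to 7.25% in KO/+ and 5.59% to 8.17% in WT.

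Exon 19 was in 39.5%, 38.4%, 37.1% and 32.3% of the Lrp8 transcripts that span it in KO/+ cerebella, against 34.3%, 33.2% and 41.4% in WT. Exon 5, which encodes part of the ligand-binding region, was in 34.4%, 32.4%, 33.7% and 27.1% in KO/+, against 28.2%, 25.7% and 36.5% in WT. On both exons KO/+ 4, WT 1 and WT 2 were the 3 lowest libraries and WT 3 was the highest. These exons share transcripts, so their values are not independent. Lrp8-202 also has a last exon of 4568 bases against 86 bases in Lrp8-209, and reads from the long 3′ end bear on these shares.

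Dab1 was led by Dab1-203 (5278 bases, 15 exons, coding), with 68.0%, 61.5%, 63.8% and 73.5% of Dab1 transcripts in KO/+ cerebella, against 64.5%, 66.8% and 61.5% in WT. The shorter coding models Dab1-206 and Dab1-202 held 6.30% to 10.4% and 7.64% to 11.6% in KO/+, and 8.11% to 11.5% and 5.39% to 10.9% in WT. Dab1-204, non-coding and of 482 bases, held 4.25% to 8.18% in KO/+ and 3.55% to 13.7% in WT. By reads Dab1-203 took 93.5% of the gene's expected counts.

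Transcripts and shares were also tested across the whole files. In edgeR, 0 of 44375 transcripts passed (0%; 1201, or 2.71%, at an unadjusted p under 0.05). Of 37912 transcript shares 36 passed (0.095%; 1.38% at an unadjusted p under 0.05), and none of the 36 was of a reelin gene. On simulated counts the share test made 71 false calls and recovered 5 of 50 transcripts changed 2-fold. The 36 could thus include false calls, and a 2-fold change in a reelin transcript could be missed. By count, the genotypes did not overlap in 1 of the 24 tested transcripts of the reelin genes, Vldlr-204, beside 4.23% of all tested transcripts. By share, they did not overlap in Vldlr-204 and Lrp8-207, 2 of the 40 transcripts of these genes above 0, beside 3.69% of all such transcripts. Both were named after their values were seen. Vldlr-204, a retained-intron model, held 1.23% to 1.66% of Vldlr transcripts in KO/+ and 1.86% to 2.26% in WT. Lrp8-207, a non-coding model of 672 bases with 7.02 expected counts per library on average, was too low to be tested and held 1.17% to 3.03% of Lrp8 transcripts in KO/+ and 0.50% to 1.11% in WT. The count of Vldlr-204 had a log2 fold change of -0.51 (SE 0.20, unadjusted p = 0.0328, adjusted p = 0.9997, edgeR), and its share an adjusted p of 0.999996.

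**Figure D4:**
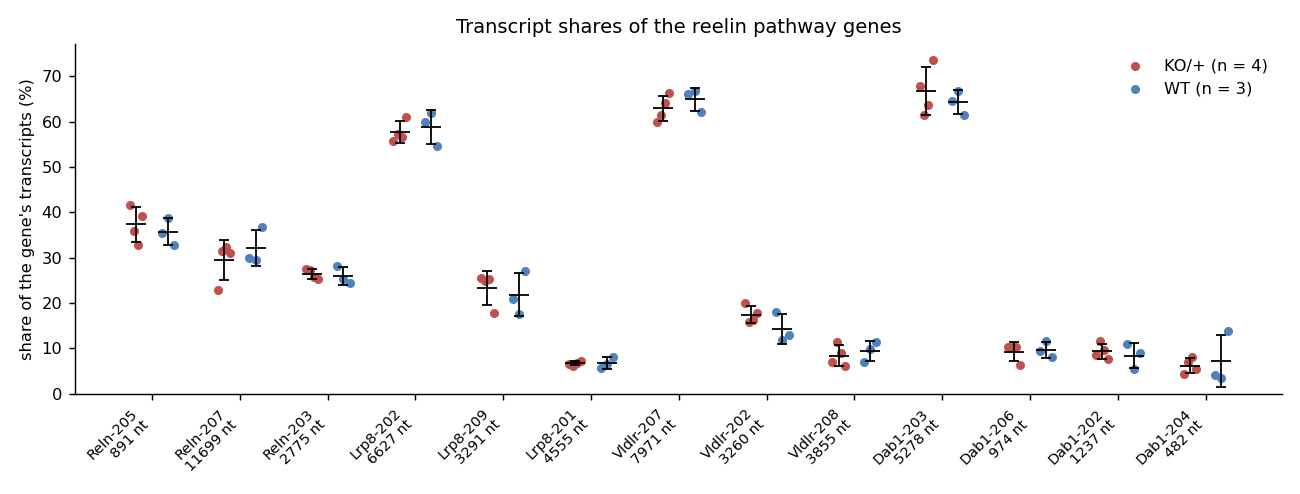
Share of each gene's transcripts (%) held by 13 transcripts, with their length in bases (nt), in 4 KO/+ and 3 WT cerebella; points are libraries and bars the mean and SD. KO/+ and WT overlap for every transcript drawn, and 3 Reln transcripts of very different length hold similar shares.

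The wider pathway, 61 genes in 7 role groups, was tested in the same fit. None passed, 30 had positive and 31 negative values, and the median log2 fold change was -0.0071, beside -0.0047 over all genes. Genotypes did not overlap in 4 genes, all higher in KO/+ (all genes higher in KO/+ without overlap: 2.16%), and in 0 genes lower in KO/+ (1.8%). These 4 were Nck1, Crk, Nck2 and Cul5.

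Outside the cell, the 6 proteases and antagonists had a median of -0.18, and the 3 with the smallest p were the metalloproteases Adamts5 (-0.43), Adamts3 (-0.37) and Adamts4 (-0.29), enzymes of a family that cleaves reelin. Among 13 other receptors and partners, Lrp1, a large endocytic receptor, was at -0.42 (SE 0.19), Itga3, an integrin subunit, at -0.20 and Thbs1, a ligand of both reelin receptors, at 0.39. None of these log2 fold changes passed the test.

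Within the cell, the 7 kinases of DAB1 lay closest to 0, between -0.08 and 0.08, with Yes1 at 0.08, Cdk5r2 at -0.08 and Cdk5r1 at -0.04; the last pair encode activators of CDK5. The 8 adaptors and exchange factors had a median of 0.14. Nck1, an SH2 adaptor, had 55.4, 49.9, 41.1 and 42.5 CPM in KO/+ cerebella, against 39.6, 38.6 and 40.8 CPM in WT (log2 fold change 0.25, SE 0.11, adjusted p = 0.957, edgeR). Crk, an adaptor that binds phosphorylated DAB1, had 219, 215, 206 and 190.3 CPM in KO/+, against 186, 181 and 189 CPM in WT (log2 fold change 0.16, SE 0.08, adjusted p = 0.957, edgeR). For both genes the lowest KO/+ library stood only just above the highest WT library. Rap1b, a small GTPase, was at 0.16 with overlapping genotypes.

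In the PI3 kinase branch (10 genes, median 0.04), Gsk3b was at -0.25, Mtor at -0.27 and Pik3cb at -0.11. Of 11 cytoskeletal effectors (median 0.00026), Map1b, a microtubule-associated protein, was the only gene of the 61 with an unadjusted p under 0.05. Map1b had 415, 451, 584 and 735 CPM in KO/+ cerebella, against 731, 765 and 783 CPM in WT (log2 fold change -0.48, SE 0.19, unadjusted p = 0.0352, adjusted p = 0.957, edgeR). KO/+ 4 lay within the WT values, and the other KO/+ libraries below them. Cdh2 was at -0.14 and Limk1 at -0.19. Of 6 genes for DAB1 turnover and polarity (median 0.05), Cul5, part of the ubiquitin ligase that degrades phosphorylated DAB1, was at 0.09, Socs7 at 0.11 and Rnf7 at 0.09.

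**Figure D5:**
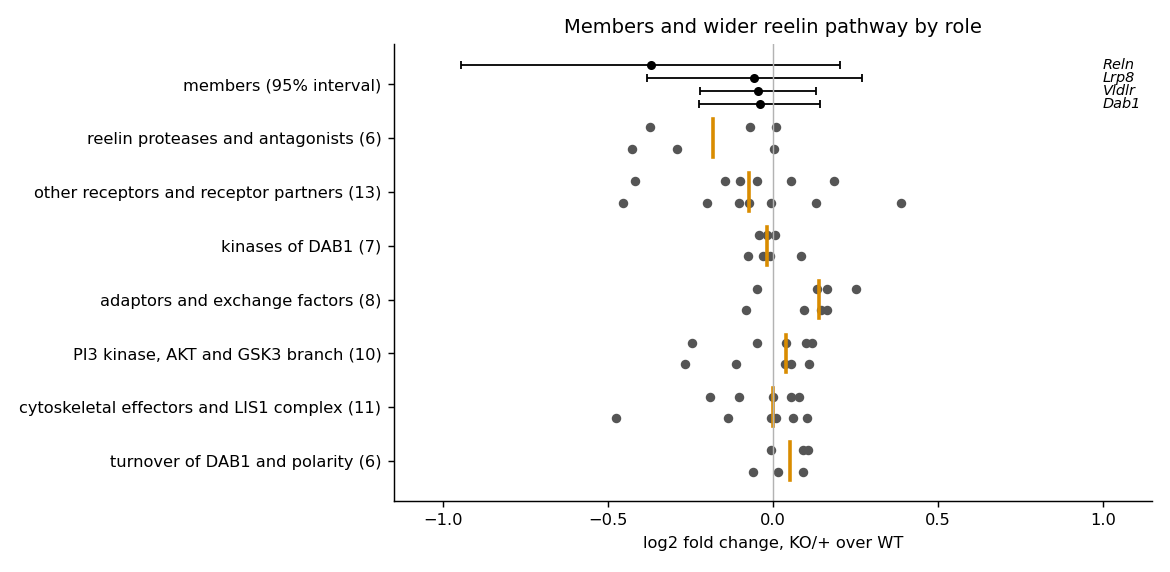
Log2 fold change (KO/+ over WT) of the 4 reelin genes with 95% intervals, and of 61 further genes by role group (number of genes in brackets); points are genes and the bar is the group's median. All 4 intervals include 0, and no gene drawn passed the adjusted threshold.

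Antisense genes lie within the spans of the ligand gene and the Lrp8 gene, and the strand setting of the counting is not given in the sources used here. They were nearly silent in the files, with at most 0.09 TPM for Gm10475 and 0 TPM for Gm16110 at Reln, and 0.13 TPM for Lrp8os1 and 0.27 TPM for Lrp8os2 at Lrp8.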

How the data were processed

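RNA was selected by poly(A), and libraries were made with a directional kit, per the labels' protocols. RSEM 1.3.1, STAR 2.5.2a, Trimmomatic 0.39 and bcl2fastq, with GRCm38 (mm10), are named in the submitters' processing notes. Expected counts, as deposited by the authors, estimate the number of reads per gene or transcript and can be fractional, per the file headers. The deposited TPM and FPKM are scaled by length and library size, and the deposited isoform percent is a transcript's share of its gene, per the file headers. The 6 tables of the whole series were not used.

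Expected counts (29248360 to 43761792 per library) were rounded, filtered with filterByExpr, scaled by TMM and tested with edgeR 4.0.16 (R 4.3.3; glmQLFit and glmQLFTest, robust; Benjamini-Hochberg adjustment over all features). CPM are on these TMM-scaled totals. Fold changes are KO/+ over WT, with 95% intervals. Transcript shares were tested with diffSpliceDGE, which does not model RSEM's uncertainty. On simulated counts it made 71 calls in unaltered genes, among 36068 shares. It recovered 0, 5, 26 and 25 of 50 transcripts each changed 1.5-, 2-, 4- and 0.25-fold. At the same folds the transcript test recovered 1, 14, 36 and 29 of 50, with 8 false calls. The gene test recovered 20, 42, 47 and 48 of 50 genes, with 15 false calls. Exon inclusion is the TPM of transcripts with the exon, as a percent of that of transcripts with or without it that hold both neighbouring exons. Marker list scores are mean log2 CPM. All 55450 gene IDs matched GENCODE M21 (GRCm38), which gave positions, types and sequences. Python 3.11.15 with NumPy 2.4.6, pandas 2.3.3 and matplotlib 3.10.9 was used, and the fits were tested on simulated counts.

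Named were L3mbtl3, the 4 genes, their transcripts with a mean share of at least 5% and longest coding transcript, up to 3 genes of smallest p per role group, the 3 most similar genes of each, and the 2 highest genes of a marker list. The members and lists were chosen with earlier results of these data known. Alternatives were other scaling factors, filters, DESeq2 1.42.0, limma 3.58.1 (voom, and trend on log2(TPM + 1) and log2(TPM + 0.1)), a replicate block, marker score covariates, each library left out, FPKM and coding transcripts alone.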

Additional observations from a re-analysis of the deposited data

Results flagged for a closer look

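In the 4 KO/+ libraries, 1 library stood far from the other 3 in 6 of the 31 levels, transcript shares and exon inclusions of the reelin genes that were examined (its gap to the nearest other library, over the group's whole range, was above Dixon's 95% critical value); chance alone flags about 1 in 20, and several of these values share transcripts. KO/+ 4 was low in the share of Dab1-206, with 6.30% against 10.2% to 10.4% in the other KO/+ libraries. It was also low in the share of Lrp8-209, at 17.7%, and in the inclusion of Lrp8 exon 7, at 24.4%, where the other KO/+ libraries had 31.6% to 32.4%. KO/+ 1 was low in the share of Reln-207, at 22.8%. Among exons that nearly all transcripts hold, KO/+ 2 had 99.2% for Reln exon 9 and KO/+ 3 had 98.9% for Lrp8 exon 9. These values rest on low models that skip the exon. Reln-212 had 0.56 and Lrp8-211 had 14.1 expected counts per library on average. The 3 WT libraries were not put through this comparison, so whether single WT libraries stand apart in the same way was not tested.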

How the results depend on the processing

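For the 4 genes, 75 of 80 alternative fold changes kept their direction, and none passed the threshold (adjusted p from 0.515 to 0.99998). Lrp8 turned to 0.038 with the progenitor score as a covariate, to 0.052 with the differentiating neuron score (added after seeing the data), to 0.015 without WT 2 and to 0.0001 without KO/+ 2. Dab1 turned to 0.025 without WT 3. With 1 library left out, log2 fold changes ran from -0.61 to -0.24 for Reln, -0.098 to 0.025 for Dab1, -0.17 to 0.015 for Lrp8 and -0.095 to -0.0020 for Vldlr. Genes called numbered 0 to 1 in those fits (1 without WT 2, without WT 3 and without KO/+ 4), transcripts 0 to 2 and transcript shares 27 to 88. No gene called in these fits or under the block below was a reelin gene or one of the wider pathway. Of transcript shares, 4 passed with at least 1 CPM in 3 libraries, beside 36. For coding transcripts alone the log2 level ratios were -0.089 for Reln over Lrp8, 0.21 for Lrp8 over Vldlr and 0.54 for Vldlr over Dab1, and per longest transcript, added later, they were 0.18 for Reln over Lrp8 and 0.61 for Vldlr over Dab1. The cause of these shifts, beyond which transcripts enter, was not tested.

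Same-numbered KO/+ and WT libraries correlated at 0.086, -0.17 and -0.022 in their deviations from the group means, so the numbers were not taken as pairs. With the number as a replicate block, in which KO/+ 4 has no partner, Reln was at -0.57, Lrp8 at -0.16, Dab1 at -0.06 and Vldlr at -0.07, with 1 gene, 0 transcripts and 48 transcript shares called. In that edgeR fit 1029 genes had an unadjusted p under 0.05. With 3 and 4 libraries, changes of Reln smaller than its interval were not detectable, and shares of transcripts rest on RSEM's division of shared reads.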

Other observations

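Lrp8 exon 7 had the same low libraries as exons 5 and 19. It was in 32.4%, 32.0%, 31.6% and 24.4% of spanning transcripts in KO/+ cerebella, against 29.0%, 26.2% and 33.4% in WT. KO/+ 4, WT 1 and WT 2 were the 3 lowest, and these are also the libraries with the highest Reln level (488, 485 and 517 CPM). This was seen in the values after the fact and was not tested, and the 3 exons share the transcripts Lrp8-202 and Lrp8-209.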
